A study of Homo sapiens with 24 samples.

Results

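The sites described here are those that lie on chromosomes 4, 13 and 18 in 2 deposited tables of chromatin immunoprecipitation followed by sequencing (ChIP-seq) in hTert-HME1 cells, which are human epithelial cells of the breast kept dividing by introduced telomerase. They were chosen by chromosome alone. Of the 30475 sites of the Rbap46 table, 1878 lay on these chromosomes, namely 1013 on chromosome 4, 435 on chromosome 13 and 430 on chromosome 18. Of the 2191 sites of the H3K9ac table, 61 did, with 30, 11 and 20 on the same chromosomes. They were set against chromosome 19, with 2030 Rbap46 and 145 H3K9ac sites, and against the 18 other autosomes together, with 25819 and 1945 sites.

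The Rbap46 table compares 2 libraries immunoprecipitated for Rbap46 with 2 libraries of input chromatin, all from untreated cells. The H3K9ac table compares 3 libraries of control cells (titled shCon2, shCon3 and shCon5) with 3 libraries of cells carrying a short hairpin against HAT1 (titled shHAT1A7, shHAT1B6 and shHAT1C5). What these designations stand for, and whether libraries of a group came from separate cultures, is not given in the labels. The values are the authors' group means on a log2 scale of normalised reads per site, so no spread between libraries could be computed and sequencing depth per library is unknown. Intervals below treat sites as independent and cover the counting of sites only. Positions are those of the tables, whose build is hg19 per the submitters' processing notes. The tables carry no gene names and no annotation of that build was used here, so sites are given by position and not by gene.

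Rbap46, also called RBBP7, is a histone-binding protein. It escorts histones H3 and H4 and is the partner of HAT1, the acetyltransferase that modifies newly made histone H4 before it is placed on DNA. The same protein is a subunit of several complexes that deacetylate, methylate or remodel chromatin. H3K9ac, acetylation of histone H3, is found at the start sites of active genes. Human chromosomes differ widely in how many genes they carry, and chromosomes 4, 13 and 18 are textbook examples of chromosomes poor in genes, while chromosome 19 is the densest. The comparisons asked how Rbap46 sites, and H3K9ac sites that differ after HAT1 depletion, are distributed and how strong they are on chromosomes with few genes.

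The label of gene-poor chromosomes was checked with the RefSeq gene table of GRCh38.p14, from which only the chromosome of each gene was used. It lists 1378 protein-coding genes on chromosomes 4, 13 and 18. Per Mb of the span between the first and last site of either table, this was 3.78 genes, against 6.90 over the other autosomes and 24.7 on chromosome 19. Chromosomes 18, 13 and 4, at 3.47, 3.53 and 4.04 genes per Mb, all lay below the lowest of the other 18 autosomes, which was chromosome 8 at 4.89.

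Rbap46 sites were sparse on chromosomes 4, 13 and 18. They stood at 5.15 per Mb (95% Poisson interval 4.92 to 5.39), against 10.9 (10.8 to 11.1) over the other autosomes and 34.5 (33.0 to 36.0) on chromosome 19. The density was thus 2.12-fold higher on the other autosomes and 6.70-fold higher on chromosome 19. By chromosome the values were 5.31 on chromosome 4, 4.55 on chromosome 13 and 5.52 on chromosome 18. All 3 lay below the range of the other 18 autosomes, which ran from 7.35 on chromosome 5 to 22.1 on chromosome 22.

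The deficit of Rbap46 sites was close in size to the deficit of genes. Chromosomes 4, 13 and 18 held 1.36 Rbap46 sites per protein-coding gene (1.3 to 1.43), chromosome 19 held 1.40 (1.34 to 1.46) and the other autosomes 1.58 (1.57 to 1.60). Per gene the other autosomes were therefore 1.16-fold higher and chromosome 19 was 1.03-fold higher. Chromosome 18 had 1.59 sites per gene and chromosome 4 had 1.32, both inside the range of 1.3 to 1.84 of the other autosomes, and chromosome 13, at 1.29, was just below it. Across all 22 autosomes, Rbap46 sites per Mb and genes per Mb had a Pearson r of 0.99 and a Spearman rho of 0.96, and without chromosome 19 the r was 0.97. This is a description over chromosomes that share the same libraries and the same span in both measures.

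H3K9ac sites that differed after HAT1 depletion were sparser still. Their density was 0.167 per Mb (0.128 to 0.215) on chromosomes 4, 13 and 18, against 0.823 (0.787 to 0.861) over the other autosomes and 2.46 (2.08 to 2.90) on chromosome 19. The other autosomes were 4.92-fold and chromosome 19 was 14.7-fold denser. Here the number of genes did not bring the values of the groups together. There were 4.43 H3K9ac sites per 100 genes (3.39 to 5.69) on chromosomes 4, 13 and 18, but 9.99 (8.43 to 11.8) on chromosome 19 and 11.9 (11.4 to 12.5) over the other autosomes. H3K9ac density still rose with gene density across all 22 autosomes, with a Pearson r of 0.82 and a Spearman rho of 0.86. Without chromosome 19 the r was 0.75.

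The values of the 3 chromosomes had overlapping intervals. Chromosome 18 had 7.41 H3K9ac sites per 100 genes (4.52 to 11.4), inside the range of the other autosomes, which ran from 4.79 on chromosome 14 to 25.1 on chromosome 16. Chromosome 4 had 3.90 (2.63 to 5.56) and chromosome 13 had 3.25 (1.62 to 5.82), values below that range but with intervals that overlap the 3.21 to 6.88 of chromosome 14. Per 100 Rbap46 sites there were 2.96 H3K9ac sites on chromosome 4, 2.53 on chromosome 13 and 4.65 on chromosome 18, against 7.53 over the other autosomes and 7.14 on chromosome 19. The H3K9ac table lists only sites that passed the authors' limit, so fewer acetylated sites and fewer changed sites among them cannot be told apart. The plot of density against genes shows both patterns.

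**Figure D1:**
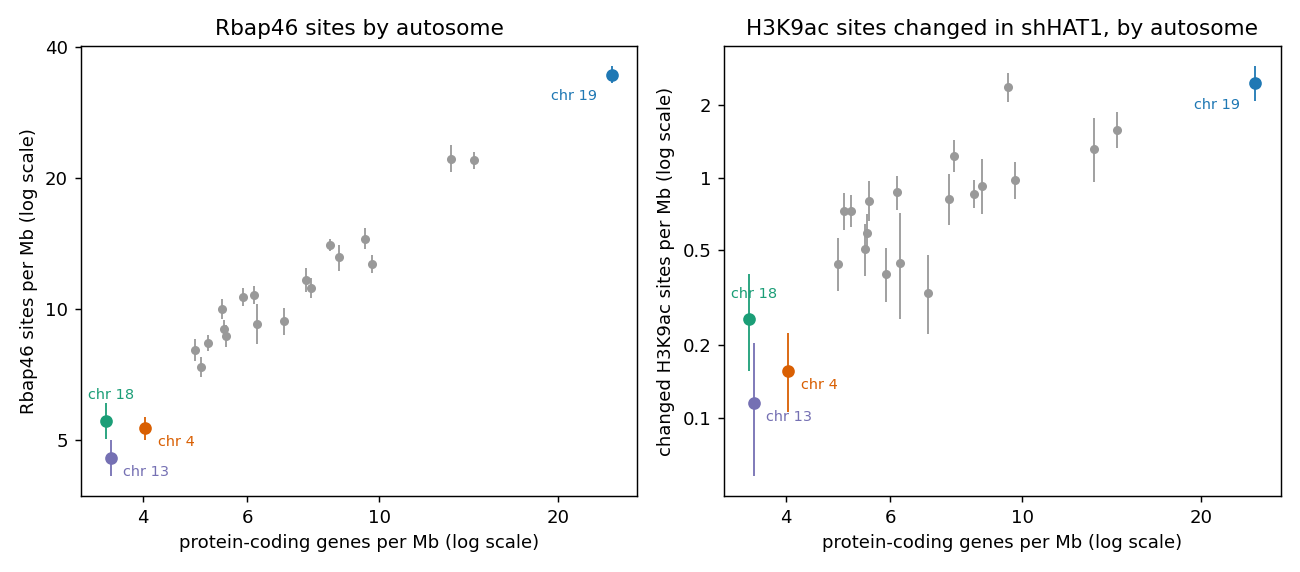
Sites per Mb against protein-coding genes per Mb for the 22 autosomes, both on log axes, for Rbap46 (left) and for H3K9ac sites that differ between shHAT1 and shControl cells (right). Points are chromosomes and bars are 95% Poisson intervals; chromosomes 4, 13 and 18 lie at 4.55 to 5.52 Rbap46 sites and 0.115 to 0.257 H3K9ac sites per Mb, below all other autosomes (grey) and chromosome 19 (blue).

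Neighbouring Rbap46 sites were far apart on the gene-poor chromosomes. The median distance between them was 37.8 kb, with quartiles of 7.67 and 119 kb, against 19.2 kb (4.91 and 59.5) over the other autosomes and 10.5 kb (3.19 and 27.0) on chromosome 19. Chromosome 13 had the widest spacing, with a median of 47.4 kb, followed by chromosome 4 with 37.1 kb and chromosome 18 with 29.6 kb. The widest median among the other autosomes was 28.3 kb, on chromosome 2. Distances over 100 kb made up 27.9% on chromosomes 4, 13 and 18, 15.9% over the other autosomes and 4.19% on chromosome 19.

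The share of the shortest distances, in contrast, was similar in the groups. Distances of at most 1 kb made up 10.1% on chromosomes 4, 13 and 18, 10.5% over the other autosomes and 12% on chromosome 19. The curves of the groups parted above 1 kb. Sites with another within 5 kb made up 35.5% (Wilson interval 33.4 to 37.7), against 43.1% and 52.1%.

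**Figure D2:**
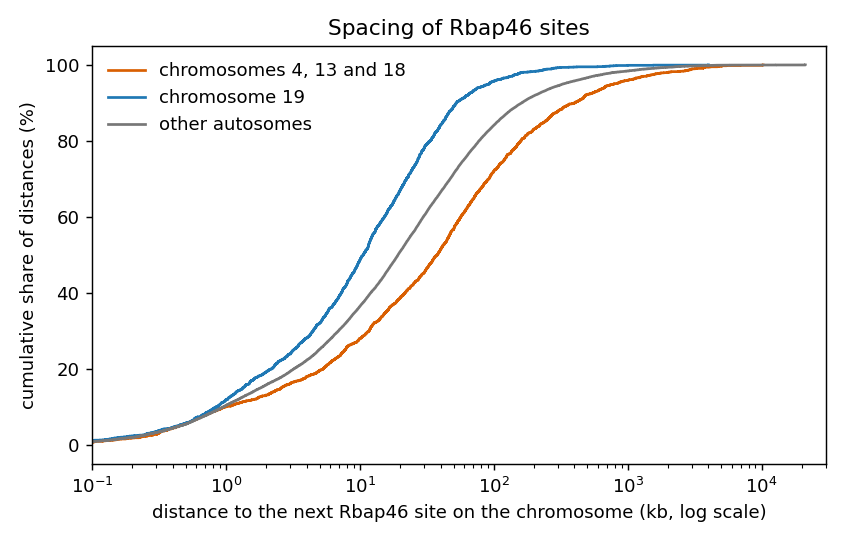
Cumulative share of distances between neighbouring Rbap46 sites, in kb on a log axis, for chromosomes 4, 13 and 18 together, chromosome 19 and the other autosomes. The curves run together up to about 1 kb and then separate, with medians of 37.8, 10.5 and 19.2 kb.

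Long stretches held no Rbap46 site. Of 366 windows of 1 Mb on the 3 chromosomes, 120 had none (32.8%), against 20.6% over the other autosomes and 5% on chromosome 19. Among the other autosomes the share reached 36.6%, on chromosome 9. Distances over 1 Mb made up 4% on the 3 chromosomes, against 1.59% over the other autosomes. The longest over the other autosomes was 21.2 Mb, on chromosome 1. Of that set, only chromosomes 1, 9 and 16 had a longest distance above those of chromosomes 4 and 13. The next of that set was 6.79 Mb, on chromosome 7. The longest distance on chromosome 4 was 10.3 Mb, from 57904635 to 68166125. On chromosome 13 it was 10.1 Mb, from 81915046 to 91999653, and on chromosome 18 it was 5.05 Mb, from 14132619 to 19180599. On chromosome 19 it was 4.01 Mb. In windows with at least 1 site the median number was 6, against 10 over the other autosomes and 32 on chromosome 19. No map of unsequenced or unmappable stretches of the build was used. Their part in these distances and empty windows was not tested.

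Sites were also bunched within each chromosome. Windows holding 50% of all Rbap46 sites made up 13.9% of the windows of the 3 chromosomes, close to the 15.7% of the other autosomes and below the 25% of chromosome 19. The fullest window of chromosome 18, from 9 to 10 Mb, held 44 sites. Those of chromosome 4, from 1 to 2 Mb, and of chromosome 13, from 50 to 51 Mb, held 35 and 24. The fullest window of chromosome 19 held 106. The first 10 Mb held 17.5% of the sites of chromosome 4 and 30.7% of those of chromosome 18.

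Read levels at the sites were low on these chromosomes in both kinds of library. The median log2 level was 6.64 in Rbap46 and 5.56 in input, against 6.87 and 5.86 over the other autosomes and 7.01 and 5.98 on chromosome 19. Chromosome 13 had the lowest input level, with a median of 5.28 (order-statistic interval 5.18 to 5.35), below the range of 5.42 to 6.12 of the other autosomes. Chromosomes 4 and 18, at 5.69 and 5.57, lay inside that range. For the Rbap46 level, chromosome 13, at 6.43, also lay below the range of 6.53 to 7.07 of the other autosomes. Chromosomes 4 and 18, at 6.71 and 6.65, lay inside it.

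Input level was even along chromosomes 4 and 13 but not along chromosome 18. In windows of 10 Mb with at least 10 sites, the median input level ran from 5.36 to 5.92 on chromosome 4 and from 4.92 to 5.42 on chromosome 13. On chromosome 18 it ran from 4.96 to 6.12. Its 4 windows up to 40 Mb stood between 5.75 and 6.12 and its 4 windows from 40 Mb on between 4.96 and 5.21, with no overlap.

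Divided at 40 Mb, a point chosen after the values were seen, chromosome 18 had a median input level of 6.01 (5.86 to 6.11) over the 257 sites before and 5.12 (4.98 to 5.26) over the 173 sites after it. The step was 0.89 on the log2 scale, or 1.85-fold. The Rbap46 level had a step of 0.74, from 6.96 to 6.22, so Rbap46 minus input was 1.01 (0.97 to 1.04) before and 1.15 (1.11 to 1.21) after the division.

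Levels in the H3K9ac libraries differed in the same direction. The median shControl level was 9.53 over the 13 H3K9ac sites up to 40 Mb (range 7.99 to 10.46) and 8.29 over the 7 sites from 40 Mb on (7.23 to 9.23), a difference of 1.24. In shHAT1 the medians were 8.81 and 7.45. The ranges of the 2 parts overlapped, the number of sites is small, and the sites are not the same as those of Rbap46. Input, Rbap46 and H3K9ac levels thus moved together, and whether the number of DNA copies moved with them was not tested.

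**Figure D3:**
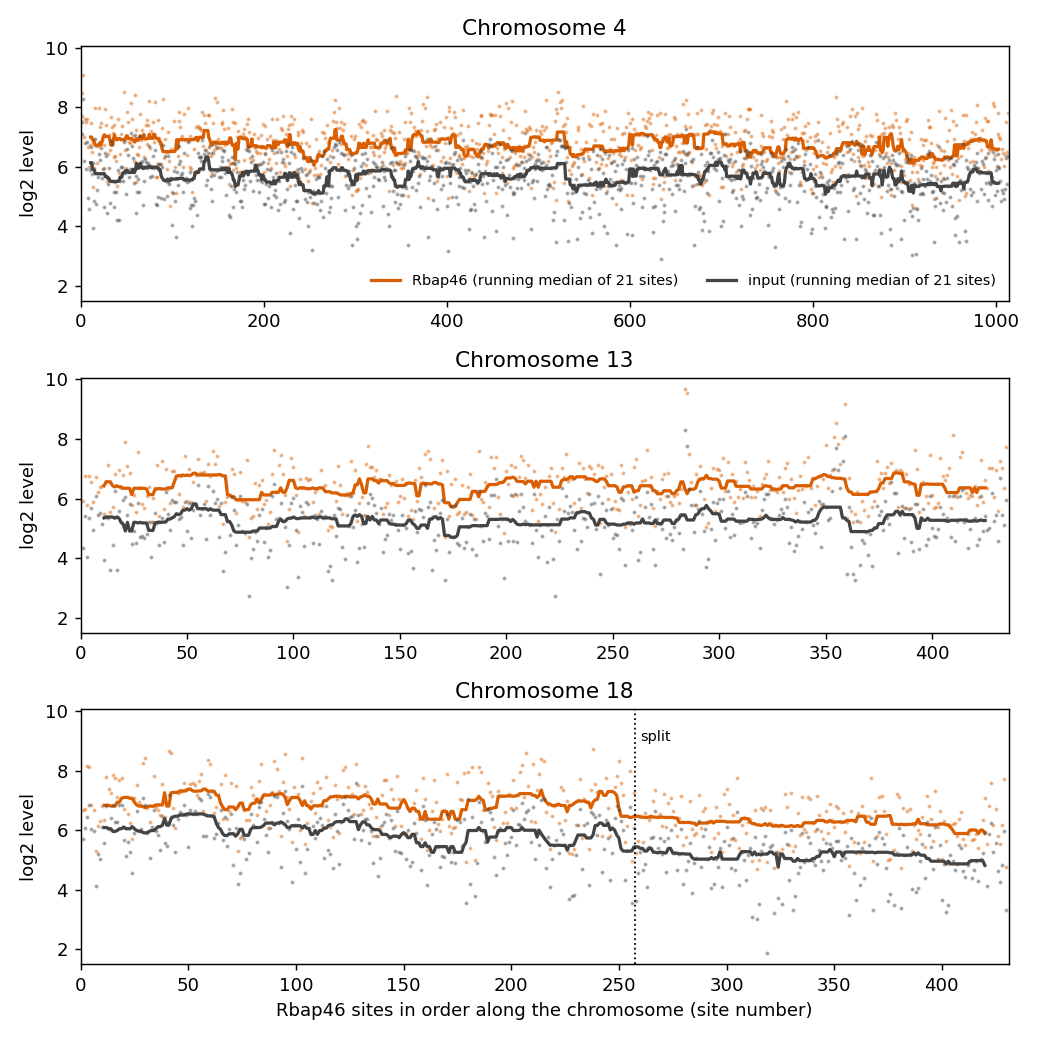
Log2 level of Rbap46 (orange) and input (grey) at each Rbap46 site of chromosomes 4, 13 and 18, in order along the chromosome by site number, with running medians of 21 sites. Both lines stay level on chromosomes 4 and 13, while on chromosome 18 they are lower after the dotted division at 40 Mb, where the median input is 5.12 against 6.01 before it.

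A few sites stood out by level, and are named after their values were seen. On chromosome 13, a pair at chr13:91999653-92000153 and chr13:92001257-92001757 had Rbap46 levels of 9.67 and 9.53 and input levels of 8.30 and 7.75. A group between 108535995 and 108594843 had input levels of 7.70, 7.27 and 8.11. These were the 5 sites of chromosome 13 with an input level of 7 or more. Such sites made up 1.65% of the sites of the 3 chromosomes (1.17 to 2.33), against 4.46% over the other autosomes. The share was 1.09% on chromosome 4 and 1.15% on chromosome 13, while on chromosome 18 it was 3.49% (2.13 to 5.68), an interval that includes the value of the other autosomes. On chromosome 4 the highest input was 8.27, at chr4:52933-53433, where Rbap46 was 9.08.

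Rbap46 minus input, the measure of enrichment, differed little from the rest of the genome. Of the 1878 sites, 1875 were above input at a false discovery rate (FDR) under 0.05 in the authors' deposited table. This is 99.8%, as it is for the whole table (99.8%). Only sites up to an FDR of 0.05 were listed by the authors, so this share says little beyond the direction of the difference. The median difference was 1.09 on the log2 scale (1.07 to 1.10), or 2.13-fold, against 1.05 (1.04 to 1.05) over the other autosomes and 1.04 (1.02 to 1.06) on chromosome 19. Quartiles were 0.91 and 1.31, so the gap of 0.04 between medians was far smaller than the spread between sites. Whether it exceeds the spread between libraries was not tested, since only group means were used.

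The 3 chromosomes were not alike, and without chromosome 13 the gap was 0.02. The median of chromosome 13 was 1.15 (1.11 to 1.2), above the range of 0.99 to 1.13 of the other autosomes, while chromosomes 4 and 18 both stood at 1.07. The top of that range was chromosome 14 at 1.13 (1.10 to 1.15), an interval that overlaps that of chromosome 13. Chromosome 14 also had the lowest median input level of the other autosomes, 5.42. At least a 2-fold enrichment was reached by 63.8% of sites on the 3 chromosomes (61.6 to 65.9), against 58.0% of the whole table. By chromosome the share was 61.2% on chromosome 4, 61.2% on chromosome 18 and 72.4% (68.0 to 76.4) on chromosome 13. The highest share among the other autosomes was 69.5% (66.2 to 72.5), on chromosome 14, with an interval that overlaps that of chromosome 13.

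Enrichment was also compared at like read concentration, because the smallest difference that passed the authors' limit on these chromosomes was 0.71 in the lowest quartile of concentration and 0.51 in the highest. Sites above input were divided into quartiles of concentration over all autosomes. Of the sites on chromosomes 4, 13 and 18, 35.5% fell in the lowest quartile and 15.2% in the highest. In the lowest quartile their median was 1.12 (1.09 to 1.14), next to 1.10 (1.09 to 1.11) over the other autosomes. In the second it was 1.03 against 0.95, in the third 1.05 against 1.00 and in the highest 1.2 against 1.14. Chromosome 13 had 46.7% of its sites in the lowest quartile and medians of 1.14, 1.15, 1.13 and 1.29 in the 4 quartiles. Its second-quartile median of 1.15 (1.08 to 1.22) was 0.20 above that of the other autosomes. The lower input level of chromosome 13 moves with this difference, and its part in it was not tested.

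**Figure D4:**
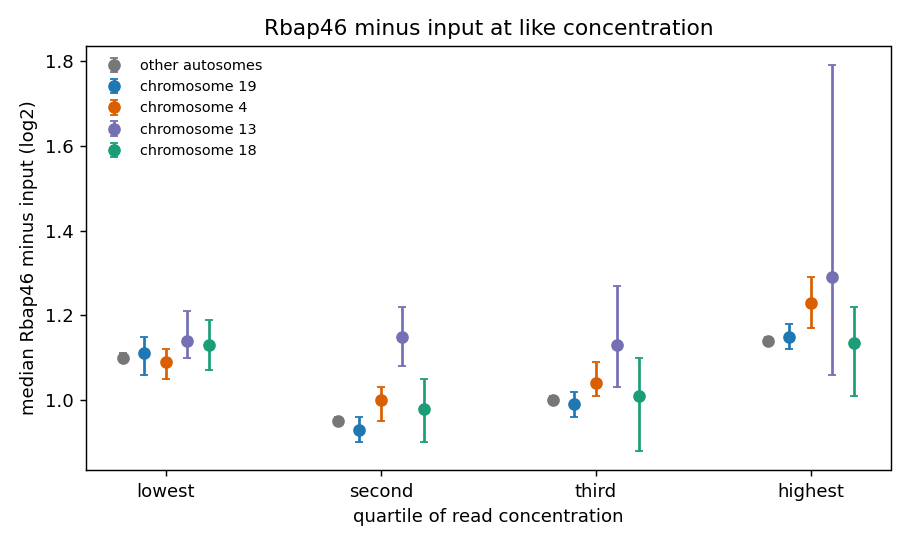
Median Rbap46 minus input on the log2 scale in each quartile of read concentration, for chromosomes 4, 13 and 18, chromosome 19 and the other autosomes, with 95% order-statistic intervals. Chromosome 13 lies between 1.13 and 1.29 in all quartiles, while the other groups dip to between 0.93 and 1.00 in the second quartile.

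The largest Rbap46 differences fell at sites of high and of low level. On chromosome 4 the largest difference was at chr4:1408699-1409199, where Rbap46 was 7.41 and input 4.64, a difference of 2.77 or 6.82-fold (4.47e-21 is the FDR given in the authors' deposited table). The site at chr4:54232003-54232503 had levels of 8.39 and 6.15 and the smallest p-value of the chromosome in the authors' deposited table (FDR 8.69e-31). The third, chr4:148653130-148653630, had only 5.72 and 3.57.

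On chromosome 13 all 3 of the largest differences were at sites of low level. They were 2.21 at chr13:109334924-109335424, 2.16 at chr13:41239212-41239712 and 2.15 at chr13:51796259-51796759, with input levels of 3.27, 3.96 and 2.74. The smallest p-value of that chromosome belonged to the second site of the pair at 92 Mb described above, with a difference of 1.78 (2.04e-44 is the FDR given in the authors' deposited table).

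Chromosome 18 held the largest difference of the 3 chromosomes, 3.05 or 8.28-fold, at chr18:48887774-48888274. Its input level of 1.89 was the lowest of all 1878 sites and its Rbap46 level was 4.94 (7.16e-05 is the FDR given in the authors' deposited table). The next were 2.38 at chr18:23570377-23570877, with levels of 7.88 and 5.50, and 2.37 at chr18:72923734-72924234, with 5.64 and 3.27. The smallest p-value was at chr18:32870122-32870622, with 8.73 and 6.56 (1.96e-32 is the FDR given in the authors' deposited table).

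A difference of at least 4-fold was reached by 20 sites of the 3 chromosomes, which is 1.06% (0.690 to 1.64), against 0.961% over the other autosomes. The median input level of these 20 sites was 4.60, against 5.56 for all sites of the 3 chromosomes. A single site lay below input, chr4:3325653-3326153, where Rbap46 was 4.69 and input 5.63 (0.0413 is the FDR given in the authors' deposited table). In the whole table such sites made up 0.164%.

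H3K9ac was lower in shHAT1 cells at nearly all of the 61 sites. By the authors' deposited table, at FDR under 0.1, the level was lower at 60 of 61, against 99.2% of the whole table. Only sites under that FDR were listed, so this count gives the direction of the difference alone. The median log2 level was 8.90 in shControl and 8.19 in shHAT1, and the median of shHAT1 minus shControl was -0.80 (-0.87 to -0.68), a 1.74-fold lower level. Over the other autosomes the median was -0.78 (-0.79 to -0.76) and on chromosome 19 it was -0.77 (-0.80 to -0.72). At FDR under 0.05 there were 18 lower sites, or 29.5% (19.6 to 41.9), against 36.1% of the whole table. The median shControl level was 9.29 over the other autosomes and 9.40 on chromosome 19. By chromosome it was 8.85 (8.71 to 9.22) on chromosome 4, 9.34 (8.34 to 10.21) on chromosome 13 and 8.995 (8.33 to 9.62) on chromosome 18, with overlapping intervals.

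The median loss differed among the 3 chromosomes, with overlapping intervals. On chromosome 4 all 30 sites were lower, between -1.14 and -0.54, with a median of -0.74 (-0.87 to -0.63). On chromosome 18 the median was -0.69 (-0.85 to -0.62) over 20 sites. On chromosome 13 the median over 11 sites was -1.05 (-1.32 to -0.82), or 2.07-fold. This median was beyond the range of -0.86 to -0.71 of the other autosomes, but its interval reached into that range. With sites within 5 kb counted as 1 place, the 11 sites were 7 places. At least a 2-fold loss was reached by 5 sites on chromosome 4, 7 on chromosome 13 and 4 on chromosome 18, which together is 26.2% (16.8 to 38.4), against 18.3% of the whole table. Those 7 sites of chromosome 13 include 5 that lie in clusters, so they are not 7 separate places. Over the other autosomes the median loss was -0.94 in the lowest quartile of H3K9ac concentration and -0.68 in the highest. The lowest quartile held 39.3% of the sites of the 3 chromosomes, against 24.5% of those of the other autosomes. Weighted to the concentration quartiles of the other autosomes, the median of the 3 chromosomes was -0.73. The share with a 2-fold loss was not compared at like concentration.

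**Figure D5:**
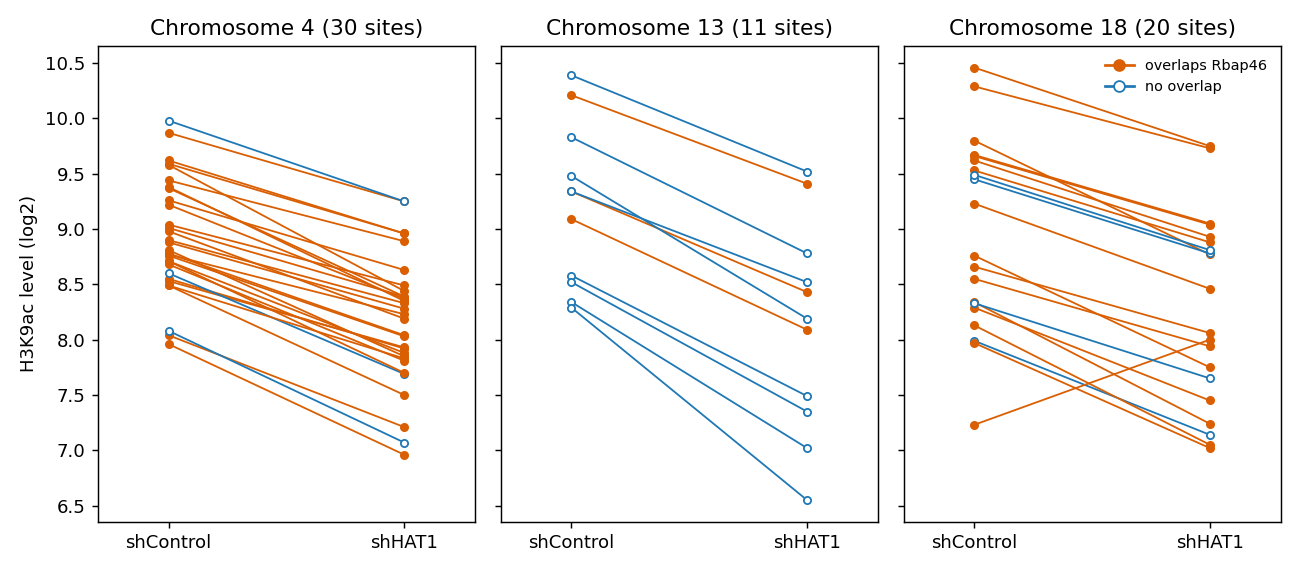
H3K9ac level (log2 group mean) in shControl and shHAT1 cells at each of the 61 sites on chromosomes 4, 13 and 18; a line joins the values of 1 site, filled orange where it overlaps an Rbap46 site and open blue where it does not. All lines but 1, on chromosome 18, go down, and 8 of the 11 sites of chromosome 13 have no Rbap46 overlap.

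The largest loss of chromosome 13 lay in a cluster of 4 sites within 7.29 kb, from 109917693 to 109924977. The site at chr13:109924477-109924977 stood at 8.29 in shControl and 6.55 in shHAT1, a difference of -1.74 or 3.34-fold (0.0446 is the FDR given in the authors' deposited table). The site at chr13:109920773-109921273 had levels of 9.48 and 8.19, a difference of -1.29 and the smallest FDR that the authors' deposited table gives for the 3 chromosomes, 0.00813. The other 2 had differences of -0.87 and -1.05, with shControl levels of 10.39 and 9.83. The nearest Rbap46 site was 349 kb away.

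A further pair on chromosome 13, from 73633884 to 73634909, had differences of -1.32 and -1.09 and was 277 kb from the nearest Rbap46 site. H3K9ac sites with another within 5 kb made up 23% on the 3 chromosomes (14 of 61, in 6 clusters), 22.6% over the other autosomes and 23.4% on chromosome 19. On chromosome 13 they were 6 of 11.

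The largest losses on chromosomes 4 and 18 were smaller than that of chromosome 13. The largest on chromosome 4 was -1.14 at chr4:79473069-79473569, where shControl was 9.58 and shHAT1 8.44 (0.0289 is the FDR given in the authors' deposited table). It was followed by -1.03 at chr4:128801548-128802466 and -1.01 at chr4:109541771-109542271, for which the authors' deposited table gives the smallest FDR of the chromosome, 0.022. On chromosome 18 the largest was -1.10 at chr18:56806605-56807546, with levels of 8.34 and 7.24, followed by -1.08 at chr18:71815707-71816207 and -1.03 at chr18:19192159-19192659. The smallest FDR that the authors' deposited table gives for chromosome 18, 0.0314, was at chr18:23805895-23806861, with a difference of -0.65.

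The only site of the 3 chromosomes with more H3K9ac in shHAT1 was chr18:46477956-46478456. Its levels were 7.23 in shControl and 8.0 in shHAT1, a difference of 0.77 (0.0714 is the FDR given in the authors' deposited table). Its shControl level was the lowest of the 61 sites.

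Overlap between the tables depended on which chromosome and which table it was counted from. Of the 61 H3K9ac sites, 46 shared at least 1 bp with an Rbap46 site above input, which is 75.4% (63.3 to 84.5), against 75.9% (74.0 to 77.8) over the other autosomes and 80.7% (73.5 to 86.3) on chromosome 19. This share joined unlike chromosomes. It was 27 of 30 on chromosome 4 (90.0%), 16 of 20 on chromosome 18 (80.0%) and 3 of 11 on chromosome 13 (27.3%, interval 9.75 to 56.6). On chromosome 13, 6 of the 8 sites without overlap lay in 2 clusters, and with sites within 5 kb counted as 1 place the overlap there was 3 of 7 (42.9%, interval 15.8 to 74.95). Counted by site, the other autosomes ranged from 58.6% on chromosome 14 to 86.9% on chromosome 16. Counted by place, their share together was 80.7%.

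The H3K9ac sites without overlap were at different distances from Rbap46. The 3 on chromosome 4 all lay within 0.724 kb of an Rbap46 site, and the 4 on chromosome 18 at 61.7 to 153 kb. Of the 8 on chromosome 13, 1 lay 4.13 kb away and 7 lay between 277 and 778 kb away. Over all 3 chromosomes 8 of 61 H3K9ac sites (13.1%) were more than 100 kb from Rbap46, against 4.06% over the other autosomes and 0.690% on chromosome 19. Of these 8 sites 7 were on chromosome 13, and with sites within 5 kb counted as 1 place the 8 sites were 4 places. These made up 7.55% of 53 places, against 4.11% of places over the other autosomes and 0.794% on chromosome 19. On chromosomes 4 and 18 alone the share of sites was 1 of 50 (2%), a single site of chromosome 18. This is too few to rank against the other autosomes.

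Counted from Rbap46, overlap was less frequent. Of the 1877 Rbap46 sites above input, 45 overlapped an H3K9ac site, which is 2.40% (1.8 to 3.19), against 5.66% (5.38 to 5.95) over the other autosomes and 5.77% (4.83 to 6.87) on chromosome 19. The share was 2.57% on chromosome 4, 0.690% on chromosome 13 and 3.72% on chromosome 18. The lowest of the other autosomes was chromosome 14 with 2.33%.

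Because sites of the gene-poor chromosomes had lower read levels, the overlap was also counted by concentration. In the lowest quartile 0 of 667 Rbap46 sites overlapped an H3K9ac site (interval up to 0.573%), against 0.817% over the other autosomes. In the second the shares were 1.40% and 1.65%, in the third 2.59% and 5.12%, and in the highest 9.47% (6.59 to 13.4) and 14.8% (13.9 to 15.6). At the shares of the other autosomes in each quartile, the sites of chromosomes 4, 13 and 18 would have 77.5 overlaps, or 4.13%, in place of the 45 counted. This share lies between the 2.40% counted and the 5.66% of the other autosomes.

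Pooled over the 3 chromosomes, Rbap46 sites that overlapped H3K9ac had larger differences from input than those that did not. On chromosomes 4, 13 and 18 the median Rbap46 minus input was 1.32 with overlap and 1.08 without, and over the other autosomes it was 1.18 and 1.04. On chromosome 13, with only 3 overlapping sites, it was 0.80 and 1.15, and chromosome 14 of the other autosomes also had the lower value with overlap, 1.05 against 1.13. The median level over all libraries of the table was 7.13 with overlap and 6.18 without. None of the 20 sites with at least a 4-fold difference overlapped an H3K9ac site (0 of 20, interval up to 16.1%), against 22.2% of the 248 such sites of the other autosomes. These 2 sets were not alike in level, with a median input of 4.60 for the 20 sites and 5.3 for the 248. Overlap rose with read concentration in both groups, and the part of level in this contrast was not tested. The loss of H3K9ac had a median of -0.74 at the 46 sites with overlap and -0.91 at the 15 without, against -0.75 and -0.89 over the other autosomes. On chromosome 13 these medians were -0.91 and -1.13 and on chromosome 4 -0.73 and -0.91. On chromosome 18 they were -0.70 and -0.68, so the sites without overlap did not lose more there. Of the 15 sites without overlap, 8 were on chromosome 13. The median shControl level was 8.94 at the sites with overlap and 8.60 at those without, and the part of level was not tested.

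On each chromosome the overlapping pair with the largest Rbap46 minus input was as follows. At chr4:146019349-146019849 H3K9ac was 9.22 in shControl and 8.37 in shHAT1, and the Rbap46 site, sharing 289 bp with it, had levels of 8.33 in Rbap46 and 6.43 in input. At chr13:92001243-92001743 H3K9ac was 9.09 and 8.09, over the Rbap46 site with levels of 9.53 and 7.75. At chr18:77794329-77794829 H3K9ac was 7.97 and 7.02, and the Rbap46 levels were 7.71 and 5.96. The Rbap46 differences at these pairs were 1.90, 1.78 and 1.75.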

How the data were processed

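Per the labels, the series has 24 libraries in 9 groups. The 2 tables used cover 4 groups with 10 libraries, and the other 14 libraries were not analysed here. Per the submitters' processing notes, the authors used cutadapt 1.8.1, Bowtie2, SAMtools 1.2, Picard 1.92, MACS2 2.1.0, R 3.3.1, DiffBind and DESeq2 for the Rbap46 and input libraries, and cutadapt, Bowtie2, Picard, SAMtools, MACS2 and DiffBind for H3K9ac. The build is hg19. The order of steps and the scaling between libraries are not given in the sources used here.

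Per the file headers, each line of the deposited tables gives a site, its log2 mean normalised read concentration over all libraries and per group, a log2 fold, a p-value and an FDR. The authors' p-value and FDR were used as deposited. The tables end at an FDR of 0.05 for Rbap46 and 0.1 for H3K9ac, so sites that did not pass were not used here. The deposited fold equals the difference of the group values within 0.01. Differences here are Rbap46 minus input and shHAT1 minus shControl, computed from the deposited group values.

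No value per library is in these tables, so no model was fitted. Density is sites per Mb between the first and last site of either table, with exact Poisson intervals. Medians have exact order-statistic intervals and shares have Wilson intervals, all at 95%. Overlap means at least 1 bp shared with an Rbap46 site above input. Sites named are, on each chromosome, the 3 most positive (Rbap46, at FDR under 0.05) or most negative (H3K9ac) differences, the smallest p-value, all sites of the opposite direction, the fullest 1-Mb window, the longest distance and the overlapping pair with the largest Rbap46 difference. Sites outside this rule, including the further H3K9ac sites in the clusters of chromosome 13, were chosen after their values were seen. The chromosomes, lists and rules were chosen with earlier results of these data known. The gene table of GRCh38.p14 served only to count protein-coding genes per chromosome. Functions were tested on simulated data. Alternatives were other limits on FDR, fold and concentration, other definitions of density and overlap, weighting by concentration, and leaving out each chromosome. Scripts ran under Python 3.11.15 with scipy 1.17.1, pandas 2.3.3, numpy 2.4.6 and, for plots, matplotlib 3.10.9.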

Additional observations from a re-analysis of the deposited data

How the results depend on the processing

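The ratio of Rbap46 density between the other autosomes and chromosomes 4, 13 and 18, 2.12, stayed between 1.78 and 2.22 under 7 alternatives, and that of H3K9ac density, 4.92, between 3.51 and 6.01 under 7. The median Rbap46 spacing of 37.8 kb became 55.7 kb at FDR under 0.01, where that of the other autosomes became 26.4 kb, since fewer sites are left. The difference of medians of Rbap46 minus input, 0.04, was 0.06 without chromosome 4 and 0.02 without chromosome 13. That of the H3K9ac change, -0.02, ran from -0.06 to 0.06 and so had no fixed sign. The overlap of 75.4% was 47.5% with at least 50% of the H3K9ac site required (53.9% over the other autosomes), 61.3% without chromosome 4 and 86.0% without chromosome 13. Without chromosome 13 it thus lay above the 75.9% of the other autosomes. With sites within 5 kb counted once, an alternative chosen after seeing the data, it was 83.0% against 80.7%. No paired analysis was possible because each group is given only by its mean, and for the same reason no library could be left out. Sites of low concentration enter the tables only with large differences, which limits any statement on weak sites.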
